A study of Mus musculus with 9 samples.

Results

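The endoplasmic reticulum (ER) folds secreted and membrane proteins and sends those that fail to the proteasome, and 32 mouse genes of this machinery were examined in MH-S cells. They were picked by symbol from a list of ER genes, and all 32 were found among the 56980 Ensembl identifiers of the deposited table. They comprise 19 folding genes, 10 genes of ER-associated degradation and 3 genes of the stress sensors. MH-S is an SV40-transformed line of mouse alveolar macrophages. The study held 9 libraries of poly(A) RNA, all taken at 24 h. Copper oxide nanoparticles (CuO NPs, 20 µg/ml) were given with 10 µM TTM to the cells of 3 libraries and without TTM to those of 3 others, and the last 3 were controls. TTM is not spelled out in the labels; tetrathiomolybdate, a copper chelator, is often written so. TTM was not given without particles, so its effect was seen only in their presence. All libraries are of 1 cell line and separate cultures are not stated, so each p-value reflects the spread among these libraries alone, which may be technical.

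As background, proteins enter the ER through the Sec61 channel and are bound by BiP, the Hsp70 of the ER, whose cycle is driven by DnaJ co-chaperones and nucleotide exchange factors. Glycoproteins also pass through the lectin chaperones calnexin and calreticulin, and protein disulfide isomerases form their disulfide bonds. Chains that stay misfolded are marked by mannosidase-like EDEM proteins, carried across the membrane by a complex of Sel1l, Hrd1 and Derlins, and destroyed by the proteasome. When unfolded chains accumulate, the sensors IRE1 (Ern1), ATF6 and PERK start the unfolded protein response. IRE1 splices the Xbp1 mRNA and ATF6 is cut to release a transcription factor, and both products raise transcription of chaperone and degradation genes. Gene-level RNA values show neither step, so neither was measured here. Ern1, Atf6 and Xbp1 are called sensor genes below, although Xbp1 is a target of IRE1 and not itself a sensor. The gene of PERK was counted among other regulators.

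Both factors are known to act through the ER stress response element (ERSE), so promoter sequence is shown first, to set it beside the levels. RefSeq promoter windows (GRCm38.p6) from 250 bases before to 50 bases after an annotated start were held for 26 of the 32 genes. On both strands, 4 patterns were searched: ERSE (CCAAT, then 9 bases of any kind, then CCACG), ERSE-II (ATTGG, then 1 base of any kind, then CCACG), the unfolded protein response element UPRE (TGACGTGG) and the amino acid response element CARE (TGATGNAAN), which ATF4 binds. ERSE and ERSE-II join the same short blocks at another spacing and with the first block turned round, and no match in these genes overlapped another. ERSE occurred in 9 of the 26 genes (34.6%) and in 37 of all 27025 genes with a window (0.137%). ERSE-II occurred in Dnajb11 and Herpud1 (7.69%), against 0.0444% of all genes. CARE occurred in Herpud1 and Txndc5 (7.69%), against 4.5% of all genes, and UPRE in Txndc5 (3.85%), against 0.714%. The genes were picked as ER genes, and ERSE is known from the ER stress response. Shares above those of all genes could thus be foreseen from the choice of genes and were not tested. A match describes letters only, and nothing here measured binding.

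The 250 bases before the start site follow for 5 genes, with matches in capitals. Herpud1, Pdia6, Hspa5 and Hsp90b1 hold a match and differ in how their levels moved, and Dnajb9, the gene with the largest change under CuO NPs, holds none of the 4 patterns.
Herpud1: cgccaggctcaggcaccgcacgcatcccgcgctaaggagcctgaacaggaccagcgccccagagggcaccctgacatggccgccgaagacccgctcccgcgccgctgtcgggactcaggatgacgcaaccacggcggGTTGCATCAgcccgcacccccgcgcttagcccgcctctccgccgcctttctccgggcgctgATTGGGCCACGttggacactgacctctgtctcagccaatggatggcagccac
Pdia6: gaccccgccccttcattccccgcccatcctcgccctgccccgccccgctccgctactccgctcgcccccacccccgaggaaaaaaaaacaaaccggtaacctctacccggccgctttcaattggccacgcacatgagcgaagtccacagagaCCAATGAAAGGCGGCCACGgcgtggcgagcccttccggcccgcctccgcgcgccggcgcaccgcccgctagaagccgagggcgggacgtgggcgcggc
Hspa5: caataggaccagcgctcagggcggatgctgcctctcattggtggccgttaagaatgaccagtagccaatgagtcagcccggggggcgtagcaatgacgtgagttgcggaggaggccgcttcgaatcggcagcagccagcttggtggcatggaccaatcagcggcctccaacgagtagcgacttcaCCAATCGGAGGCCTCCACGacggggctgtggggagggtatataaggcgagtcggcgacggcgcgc
Hsp90b1: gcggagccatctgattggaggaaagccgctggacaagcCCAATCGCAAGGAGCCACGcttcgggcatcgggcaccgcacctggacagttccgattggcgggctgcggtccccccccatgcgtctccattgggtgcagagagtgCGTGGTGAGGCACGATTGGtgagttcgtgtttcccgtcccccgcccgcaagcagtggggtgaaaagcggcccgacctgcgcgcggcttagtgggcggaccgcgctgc
Dnajb9: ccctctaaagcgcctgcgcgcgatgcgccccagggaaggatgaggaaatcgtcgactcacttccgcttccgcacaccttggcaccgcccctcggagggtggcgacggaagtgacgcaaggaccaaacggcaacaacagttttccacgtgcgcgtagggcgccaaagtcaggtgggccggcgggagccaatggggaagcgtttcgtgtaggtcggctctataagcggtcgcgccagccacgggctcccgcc
These lie in GRCm38.p6 at chr8:94386179-94386428 on the plus strand for Herpud1, chr12:17266339-17266588 on the plus strand for Pdia6, chr2:34771840-34772089 on the plus strand for Hspa5, chr10:86705445-86705694 on the minus strand for Hsp90b1 and chr12:44210069-44210318 on the minus strand for Dnajb9. In Herpud1 the first capitals are CARE on the opposite strand and the second are ERSE-II. Hsp90b1 holds ERSE once on each strand.

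The other matches to ERSE, and that of Dnajb11 to ERSE-II, are shown alone to compare their spacers, read on the strand that carries the pattern.
Calr: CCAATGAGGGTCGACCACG
Canx: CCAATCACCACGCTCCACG
Creld2: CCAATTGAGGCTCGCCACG
Dnajc3: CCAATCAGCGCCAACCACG
Syvn1: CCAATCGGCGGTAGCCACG
Derl3: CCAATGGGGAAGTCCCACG
Dnajb11: ATTGGCCCACG
They lie at chr8:84847075-84847093 (plus strand) for Calr, chr11:50325800-50325818 (minus strand) for Canx, chr15:88819520-88819538 (minus strand) for Creld2, chr14:118937827-118937845 (plus strand) for Dnajc3, chr19:6046532-6046550 (plus strand) for Syvn1, chr10:75893242-75893260 (minus strand) for Derl3 and chr16:22857852-22857862 (plus strand) for Dnajb11. The Dnajb11 match is the only one of those shown that lies after the start site.

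**Figure D1:**
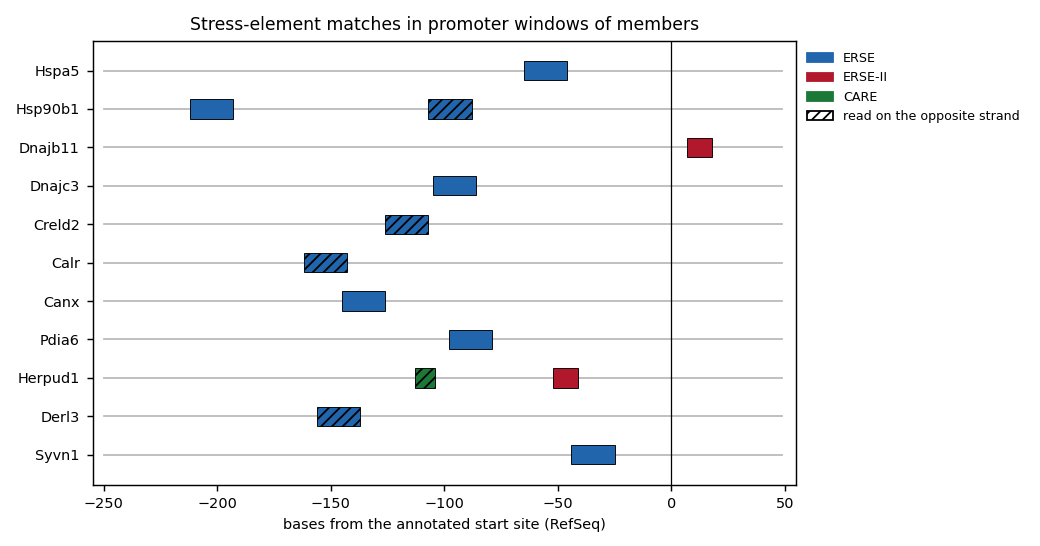
Position of ERSE, ERSE-II and CARE matches in the promoter windows of 11 genes, in bases from the annotated start site, with hatched boxes read on the opposite strand. ERSE matches lie between -212 and -26, and Txndc5, which has several annotated starts, is not drawn.

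Levels are TPM, transcript abundances scaled for length and to the same total in each library. They can be compared between genes. Read depth is unknown. Libraries correlated over genes (Pearson, log2 of TPM + 1), and r ranged from 0.981 to 0.986 within groups and from 0.943 to 0.962 across them. A gene was tested where at least 3 libraries reached 1 TPM, and called at an adjusted p below 0.05 in limma over all 12904 genes tested. Log2 fold changes were taken of TPM + 1, so those of genes with low TPM are understated. Mitochondrially encoded mRNAs took 11.3 to 13.3% of TPM with CuO NPs + TTM, 15.5 to 15.9% with CuO NPs and 12.6 to 13.4% in controls. Of 17 macrophage markers 15 were tested, and Siglecf was at 0 with CuO NPs + TTM and in controls. The summed level of the 17 markers was 1951 to 2070 TPM with CuO NPs + TTM, 1546 to 1607 TPM with CuO NPs and 3395 to 3442 TPM in controls, and its part in the results below was not tested. All 15 tested were called lower under CuO NPs (30.1% of all genes). With CuO NPs + TTM against CuO NPs 9 were called higher and Csf1r, Spi1 and Chil3 lower (34.6% and 18.5% of all genes). For CuO NPs + TTM against control Itgax was called higher and 11 lower (27.3% and 28.2%), so the sum does not stand for each marker. In bulk RNA, fewer cells of a type and less RNA per cell cannot be told apart. The 9 markers of granulocytes and mast cells summed to 65.2 to 72.5 TPM with CuO NPs + TTM, 200.3 to 221 TPM with CuO NPs and 385.5 to 402 TPM in controls. Of these, 4 were tested, and they moved apart under CuO NPs, so the sum does not stand for each marker. Ly6g was called higher (1.53), and S100a8, S100a9 and Cxcr2 were called lower (11.8% of all genes higher, 30.1% lower). Cpa3 and Mcpt4 were at 0 in every library, and the part of these markers in the results was likewise not tested. Markers of fibroblasts, epithelium, endothelium, lymphocytes and plasma cells, the last of which carry much ER, each summed to at most 16.02 TPM in any library.

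Of the 32 genes 31 were tested. Derl3, a Derlin of secretory tissues, was not, with 0, 0 and 0.11 TPM in the CuO NPs + TTM libraries, 0.11, 0.17 and 0.14 TPM in the CuO NPs libraries and 0.69, 0.09 and 1.23 TPM in the controls. The folding genes were the more abundant class. Calr, a lectin chaperone that also stores calcium, had the highest control mean at 616 ± 16.8 TPM (SD, n = 3, as for all means), and Dnajb9 the lowest of those tested at 6.97 ± 0.278 TPM. Summed over the 19 folding genes, levels were 3379 ± 123 TPM with CuO NPs + TTM, 3274 ± 46.2 TPM with CuO NPs and 3354 ± 52.2 TPM in controls, and the ranges of libraries overlapped. Summed over the 10 degradation genes they were 442 to 453 TPM with CuO NPs + TTM, 363 to 387 TPM with CuO NPs and 411 to 430.4 TPM in controls. The 3 sensor genes summed to 102 to 109 TPM with CuO NPs + TTM, 74.2 to 81.4 TPM with CuO NPs and 80.6 to 87.9 TPM in controls. On this scale the summed degradation genes of the groups did not overlap, but with median-of-ratios scaling, an alternative chosen after seeing the data, they did. They then summed to 418 to 446 with CuO NPs + TTM, 393 to 405 with CuO NPs and 386 to 419 in controls, so that only CuO NPs + TTM and CuO NPs stayed apart. With that scaling the folding genes summed to 3373 to 3537 with CuO NPs, above 3131 to 3321 in controls and without overlap. Their sums with CuO NPs + TTM were 3052 to 3441, which overlapped both.

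Comparing CuO NPs with control asked which of these genes moved after exposure to the particles. Dnajb9, the BiP co-chaperone ERdj4, rose 3.21-fold, and all other tested genes were at 0.64 to 1.31 times their control mean. Of 31 genes tested 5 rose, Hyou1, Dnajb9, Herpud1, Derl1 and Ern1, and 7 fell, Hsp90b1, P4hb, Txndc5, Selenos, Edem1, Os9 and Atf6. The 12 calls stand against 41.9% of all genes called, the 5 against 11.8% called higher and the 7 against 30.1% called lower. Libraries of the groups did not overlap for 20 of the 31, against 53% of all genes. Their median log2 fold change was -0.04, against -0.12 over all genes tested. This balance rested on the scaling. With median-of-ratios scaling, which moves the median gene to 0.00, 13 rose and 6 fell, against 19.9% and 19.8% of all genes. With median centring 14 rose and 5 fell (24.3% and 16% of all genes), with quantile normalization 13 and 6 (20.3% and 19.6%), and with TPM rescaled without mitochondrial mRNAs 8 and 6 (13.7% and 25.6%). The 8 genes added by median-of-ratios scaling were Hspa5 (0.33), Sdf2l1 (0.37), Creld2 (0.20), Canx (0.15), Pdia3 (0.21), Pdia4 (0.17), Sec61b (0.19) and Edem2 (0.21), and Hsp90b1 no longer passed.

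Comparing CuO NPs + TTM with CuO NPs asked what TTM changed beside the particles. Sil1, Edem1, Sdf2l1, Edem2, Herpud1 and Sel1l rose 1.60-fold to 2.69-fold by mean TPM, the sensor genes Atf6, Ern1 and Xbp1 rose 1.22-fold to 1.58-fold, and Dnajb9 fell to 0.58 of its level with CuO NPs. In all 14 of 31 rose and 8 fell, 22 calls against 53.1% of all genes called, 34.6% higher and 18.5% lower. Libraries did not overlap for 23 of the 31, against 59.4% of all genes. The median was 0.03, against 0.12 over all genes. With median-of-ratios scaling 12 rose and 12 fell, against 26.4% and 27.2% of all genes, and with each library centred on its median gene 11 rose and 15 fell, against 21.2% and 32.7%. Of the 14 that rose, Hsp90b1 and Xbp1 lost their calls with both of these scalings (0.079 and 0.021 for Hsp90b1, 0.15 and 0.091 for Xbp1). Pdia4 lost its call with centring alone (0.13).

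Comparing CuO NPs + TTM with control asked what remained or was added when both agents were present. Sil1, Sdf2l1, Herpud1 and Ern1 were at 1.98 to 2.18 times their control mean, and Edem2, Dnajb9, Hyou1 and Sel1l were at 1.52 to 1.85 times it. Selenos fell to 0.58 and Derl2 to 0.68 of control. In all 14 of 31 rose and 11 fell, 25 calls against 55.5% of all genes called, 27.3% higher and 28.2% lower. Libraries did not overlap for 27 of the 31, against 63.1% of all genes. The median was 0.12, against 0.00 over all genes. With median-of-ratios scaling 13 rose and 10 fell, against 28% and 28.2% of all genes. With quantile normalization 18 rose and 8 fell, against 29% and 28.2%. Without control replicate 1, 13 rose and 7 fell, against 26.1% and 24%. The comparisons share libraries, so their values are given side by side, and like calls across them are not independent.

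**Figure D2:**
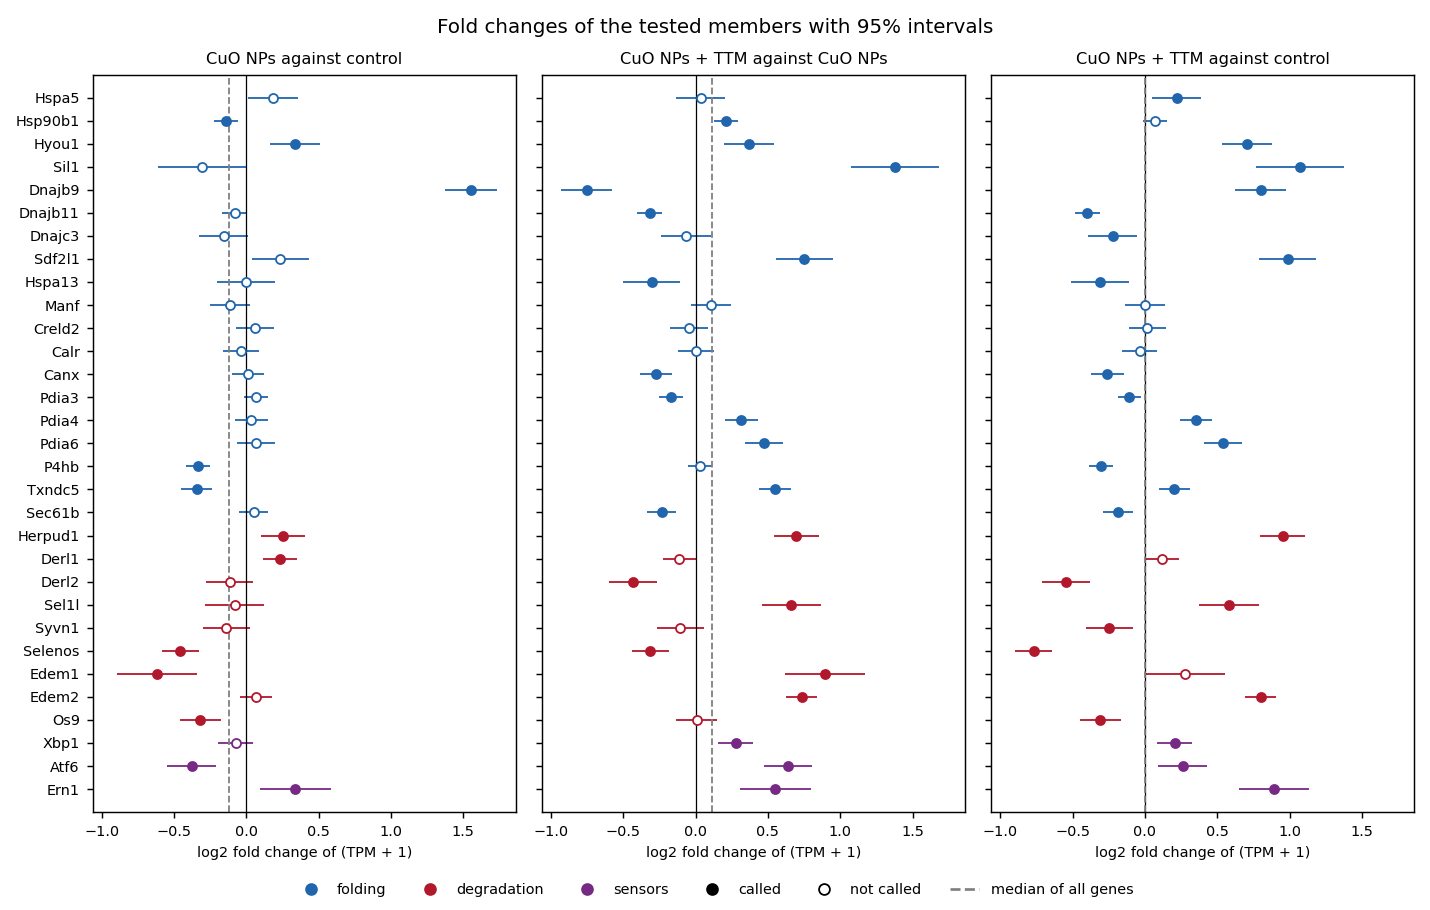
Log2 fold change of (TPM + 1) with its 95% interval for the 31 tested genes in each comparison, coloured by class, with filled points for called genes and a dashed line at the median of all genes. Dnajb9 stands at 1.55 under CuO NPs, and the 3 sensor genes lie right of 0 in both comparisons that involve TTM.

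**Figure D3:**
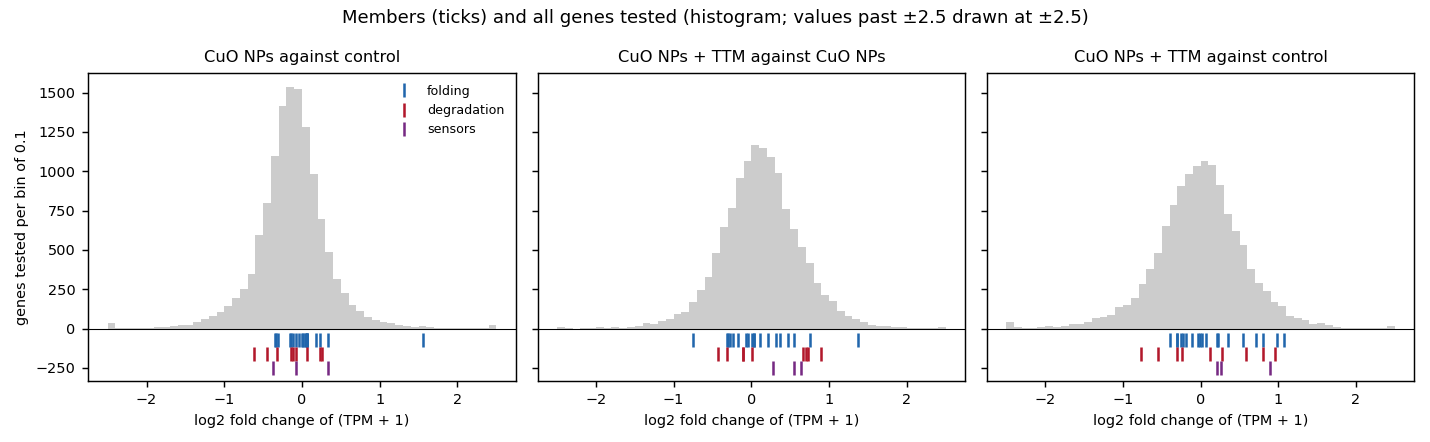
Number of genes per bin of log2 fold change over all 12904 genes tested, with ticks for the folding, degradation and sensor genes below. Most ticks lie within the bulk of all genes, and Dnajb9 under CuO NPs and Sil1 in CuO NPs + TTM against CuO NPs (1.38) lie in the right tail.

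Among the chaperones, Hspa5 (ENSMUSG00000026864), which encodes BiP, was at 1.17 times its control mean with CuO NPs + TTM and 1.14 times with CuO NPs. It had 301, 341 and 384 TPM in the CuO NPs + TTM libraries, 320.1, 339 and 339.8 TPM in the CuO NPs libraries and 299, 292 and 287 TPM in the controls. All CuO NPs libraries and all CuO NPs + TTM libraries exceeded the highest control, and the CuO NPs + TTM libraries were the most spread. Its log2 fold change was 0.19 (SE 0.076, adjusted p = 0.0769) for CuO NPs against control, with a 95% interval of 0.01 to 0.36, and 0.034 (SE 0.076, adjusted p = 0.73) for CuO NPs + TTM against CuO NPs. Against control, CuO NPs + TTM gave 0.22 (SE 0.076, adjusted p = 0.0329), a call that was lost under 10 of 20 alternatives, among them leaving out CuO NPs + TTM replicate 3 (0.13) or replicate 2 (0.22) or any control (0.21 to 0.24). For CuO NPs against control it was called under 7 alternatives, among them median-of-ratios scaling (0.33) and leaving out CuO NPs + TTM replicate 1 or 3 (0.19 each). Hsp90b1 (ENSMUSG00000020048), which encodes the ER Hsp90 GRP94, had 407, 416 and 416 TPM in the CuO NPs + TTM libraries, 352, 363 and 355 TPM in the CuO NPs libraries and 397, 379.9 and 405 TPM in the controls. It was lowest with CuO NPs, without overlap. It fell by 0.14 on the log2 scale under CuO NPs (adjusted p = 0.0132), a call kept under 14 of 20 alternatives. This call was lost without control replicate 3 (-0.12) and with no trend (-0.14). It was also lost with median-of-ratios scaling (-0.0009), quantile normalization (-0.03), TPM rescaled without mitochondrial mRNAs (-0.09) and median centring (0.040). With CuO NPs + TTM it was higher than with CuO NPs by 0.21 (SE 0.037, adjusted p = 0.00119), a call lost with median-of-ratios scaling (0.079) and median centring (0.021).

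The 2 nucleotide exchange factors of BiP differed in their values. Hyou1 (ENSMUSG00000032115), which encodes GRP170, had 115.2, 117 and 128 TPM in the CuO NPs + TTM libraries, 85.7, 102 and 90.6 TPM in the CuO NPs libraries and 78.8, 68.9 and 71.8 TPM in the controls. CuO NPs + TTM libraries were highest and controls lowest, without overlap, with log2 fold changes of 0.34 (SE 0.077, adjusted p = 0.00637) for CuO NPs against control, 0.37 (SE 0.077, adjusted p = 0.00278) between CuO NPs + TTM and CuO NPs and 0.71 (SE 0.077, adjusted p = 4.84e-05) for CuO NPs + TTM against control. Sil1 (ENSMUSG00000024357), which encodes the second exchange factor, had 30.1, 31.0 and 33.96 TPM in the CuO NPs + TTM libraries, 15.1, 10.8 and 9.49 TPM in the CuO NPs libraries and 14.5, 14.0 and 15.1 TPM in the controls. The CuO NPs + TTM libraries lay far above all others, which overlapped. Sil1 rose with CuO NPs + TTM by 1.38 (SE 0.14, adjusted p = 3.84e-05) against CuO NPs and by 1.07 (SE 0.14, adjusted p = 0.00013) against control. For CuO NPs against control the groups overlapped, with -0.30 (SE 0.14, adjusted p = 0.101), and without CuO NPs replicate 1 the value was -0.48 and was called.

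Among the DnaJ co-chaperones, Dnajb9 (ENSMUSG00000014905), which also brings clients to degradation and keeps IRE1 bound by BiP, had 11.8, 13.1 and 13.8 TPM in the CuO NPs + TTM libraries, 21.1, 23.6 and 22.5 TPM in the CuO NPs libraries and 7.15, 6.65 and 7.11 TPM in the controls. No groups overlapped, and the highest were the CuO NPs libraries. Its log2 fold changes were 1.55 (SE 0.079, adjusted p = 7.58e-07) for CuO NPs against control, -0.75 (SE 0.079, adjusted p = 5.39e-05) between CuO NPs + TTM and CuO NPs and 0.80 (SE 0.079, adjusted p = 2.73e-05) for CuO NPs + TTM against control. Dnajb11 (ENSMUSG00000004460), which encodes ERdj3, had 111, 106 and 110.2 TPM in the CuO NPs + TTM libraries, 137, 137 and 134 TPM in the CuO NPs libraries and 145, 141 and 145 TPM in the controls. It fell with CuO NPs + TTM, by 0.32 on the log2 scale against CuO NPs (SE 0.039, adjusted p = 0.000133) and by 0.40 against control (adjusted p = 2.53e-05). Dnajc3, which encodes p58IPK, averaged 12.9 ± 0.818 TPM with CuO NPs + TTM and 15.2 ± 0.604 TPM in controls, a log2 fold change of -0.22 (adjusted p = 0.0301). This call was lost without control replicate 1 (-0.20) or 3 (-0.23), without CuO NPs + TTM replicate 1 (-0.19) or 2 (-0.21), and with the replicate number as a block (-0.22).

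Sdf2l1 (ENSMUSG00000022769), a partner of ERdj3 that keeps clients soluble, had 86.7, 99.5 and 103 TPM in the CuO NPs + TTM libraries, 54.0, 55.4 and 60.8 TPM in the CuO NPs libraries and 43.1, 52.4 and 48.8 TPM in the controls. All CuO NPs + TTM libraries lay above all others, and Sdf2l1 rose by 0.75 (SE 0.087, adjusted p = 9.90e-05) against CuO NPs and 0.99 (SE 0.087, adjusted p = 1.42e-05) against control. Dnajb11 fell in both of these comparisons. Under CuO NPs Sdf2l1 had 0.24 (SE 0.087, adjusted p = 0.0549), and without control replicate 2 (0.30) or CuO NPs + TTM replicate 1 (0.24) it was called. It was also called with median-of-ratios scaling (0.37), median centring (0.42), quantile normalization (0.36) and TPM rescaled without mitochondrial mRNAs (0.28). The filter at 5 TPM and the replicate block gave a call as well (0.24 each). Hspa13 (ENSMUSG00000032932), an atypical ER Hsp70, had 11.99, 10.7 and 10.2 TPM in the CuO NPs + TTM libraries, 13.2, 15.3 and 13.03 TPM in the CuO NPs libraries and 14.6, 13.8 and 13.1 TPM in the controls. It fell with CuO NPs + TTM, by 0.30 (SE 0.089, adjusted p = 0.0163) against CuO NPs, and fell by 0.31 (SE 0.089, adjusted p = 0.0147) against control. The first call was lost without CuO NPs replicate 2 (-0.24) or CuO NPs + TTM replicate 3 (-0.26), and the second without control replicate 1 (-0.27) or CuO NPs + TTM replicate 3 (-0.26). Manf and Creld2, secreted or ER-resident proteins known to be induced by ER stress, were not called in any comparison with TPM as deposited. Their log2 fold changes ran from -0.11 to 0.11 for Manf and from -0.044 to 0.061 for Creld2, with 95% intervals for CuO NPs + TTM against control of -0.14 to 0.14 and -0.11 to 0.15. Manf was called against CuO NPs without CuO NPs replicate 3 (0.16), and Creld2 with median-of-ratios scaling, at 0.20 for CuO NPs and -0.17 for CuO NPs + TTM against CuO NPs.

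Of the lectin chaperones and the channel, Canx and Sec61b fell with CuO NPs + TTM and Calr was not called. Calr had 563, 590.5 and 652 TPM in the CuO NPs + TTM libraries, 598, 616 and 585 TPM in the CuO NPs libraries and 613, 601 and 634 TPM in the controls. All groups overlapped, and 95% intervals of the log2 fold change were -0.16 to 0.08 for CuO NPs against control and -0.16 to 0.09 for CuO NPs + TTM against control. Canx, which encodes the membrane lectin calnexin, averaged 241 ± 11.1 TPM with CuO NPs + TTM and 291 ± 3.73 TPM with CuO NPs, a change of -0.27 (SE 0.050, adjusted p = 0.00134). Its change against control was -0.26 (SE 0.050, adjusted p = 0.00163). Sec61b, a subunit of the entry channel, also fell, by 0.24 (SE 0.046, adjusted p = 0.00194) with CuO NPs + TTM against CuO NPs, and fell by 0.19 (SE 0.046, adjusted p = 0.00668) against control. Quantile normalization took away the calls of Canx (-0.07) and Sec61b (-0.06) against control. Under CuO NPs the log2 fold change was 0.014 for Canx and 0.050 for Sec61b, neither called, but both were called higher with median-of-ratios scaling (0.15 and 0.19).

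The disulfide isomerases did not move as one. P4hb (ENSMUSG00000025130), the founding isomerase, had 393, 407 and 397 TPM in the CuO NPs + TTM libraries, 394, 393 and 386 TPM in the CuO NPs libraries and 483, 485 and 511 TPM in the controls. Both exposed groups lay below all controls, with -0.33 (SE 0.037, adjusted p = 9.30e-05) for CuO NPs and -0.30 (SE 0.037, adjusted p = 9.84e-05) for CuO NPs + TTM. Pdia6 (ENSMUSG00000020571), also called P5, had 144, 156 and 169.7 TPM in the CuO NPs + TTM libraries, 112, 111 and 114 TPM in the CuO NPs libraries and 104, 109 and 109 TPM in the controls. It rose with CuO NPs + TTM, by 0.47 (SE 0.059, adjusted p = 0.000148) against CuO NPs and 0.54 (SE 0.059, adjusted p = 5.11e-05) against control, and had 0.066 (SE 0.059, adjusted p = 0.4) for CuO NPs against control. Pdia4 (ENSMUSG00000025823), also called ERp72, had 58.7, 63.4 and 63.7 TPM in the CuO NPs + TTM libraries, 50.2, 49.6 and 48.7 TPM in the CuO NPs libraries and 49.01, 48.9 and 46.9 TPM in the controls. It was higher with CuO NPs + TTM than with CuO NPs by 0.32 (SE 0.050, adjusted p = 0.000577) and than controls by 0.35 (SE 0.050, adjusted p = 0.000252). Txndc5 (ENSMUSG00000038991), also called ERp46, had 61.2, 59.5 and 63.1 TPM in the CuO NPs + TTM libraries, 42.9, 42.1 and 39.8 TPM in the CuO NPs libraries and 52.6, 53.6 and 52.9 TPM in the controls. No groups overlapped, with -0.34 (SE 0.049, adjusted p = 0.000417) for CuO NPs against control, 0.55 (SE 0.049, adjusted p = 2.08e-05) between CuO NPs + TTM and CuO NPs and 0.20 (SE 0.049, adjusted p = 0.00544) for CuO NPs + TTM against control. Pdia3, the isomerase that works with the lectins, had 247 to 252 TPM with CuO NPs + TTM and 275 to 288 TPM with CuO NPs, and fell by 0.17 (SE 0.036, adjusted p = 0.00317). Its log2 fold change against control was -0.11 (adjusted p = 0.0309). This call was not kept under 11 of 20 alternatives. It was lost on leaving out any CuO NPs + TTM replicate or control replicate 1 or 3 (-0.11 to -0.09). With quantile normalization Pdia3 was called higher (0.087).

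**Figure D4:**
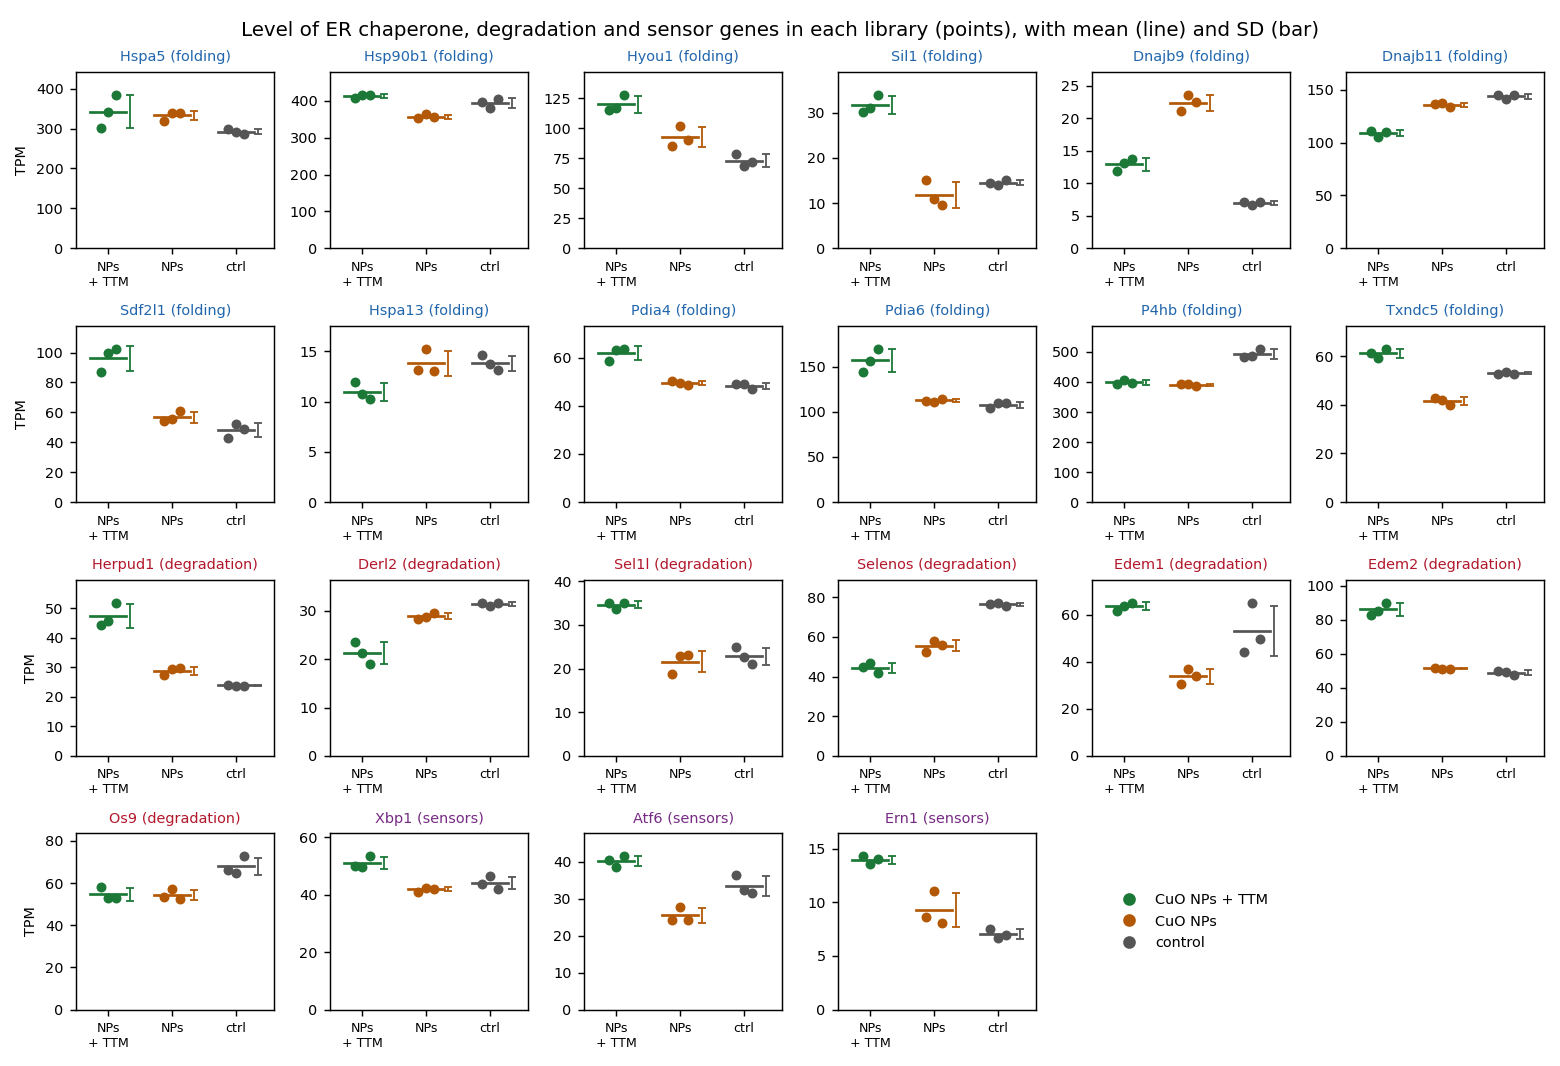
TPM in each library for 22 genes, namely Hspa5, Hsp90b1, the sensors and those called in any comparison with an absolute log2 fold change of at least 0.3, with the mean as a line and the SD as a bar. CuO NPs + TTM libraries stand highest for Sil1, Sdf2l1, Pdia6, Herpud1, Sel1l, Edem2 and Ern1, and CuO NPs libraries for Dnajb9.

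In the degradation pathway, Herpud1, Sel1l, Edem1 and Edem2 rose with CuO NPs + TTM against CuO NPs, and Derl2 and Selenos fell. Herpud1 (ENSMUSG00000031770), a membrane protein that assembles the Hrd1 complex, had 44.2, 45.6 and 51.9 TPM in the CuO NPs + TTM libraries, 27.2, 29.3 and 29.6 TPM in the CuO NPs libraries and 24.1, 23.8 and 23.8 TPM in the controls. CuO NPs + TTM libraries were highest and controls lowest, without overlap, with 0.25 (SE 0.068, adjusted p = 0.0142) for CuO NPs against control, 0.70 (SE 0.068, adjusted p = 3.67e-05) between CuO NPs + TTM and CuO NPs and 0.95 (SE 0.068, adjusted p = 3.99e-06) for CuO NPs + TTM against control. The first of these calls was lost without CuO NPs replicate 3 (0.23). Sel1l (ENSMUSG00000020964), the scaffold of Hrd1, had 35.1, 33.7 and 35.1 TPM in the CuO NPs + TTM libraries, 18.7, 22.9 and 23.2 TPM in the CuO NPs libraries and 24.9, 22.6 and 21.0 TPM in the controls. It rose with CuO NPs + TTM by 0.66 (SE 0.091, adjusted p = 0.000268) against CuO NPs and 0.58 (SE 0.091, adjusted p = 0.000485) against control, while CuO NPs and control overlapped with -0.080 (SE 0.091, adjusted p = 0.514). Syvn1, which encodes the ubiquitin ligase Hrd1 itself, averaged 25.5 ± 0.738 TPM with CuO NPs + TTM and 30.4 ± 2.604 TPM in controls. Its log2 fold change was -0.25 (adjusted p = 0.0164), a call lost without control replicate 1 (-0.18) or CuO NPs + TTM replicate 2 (-0.23), and its change relative to CuO NPs was -0.11 (SE 0.072, adjusted p = 0.239).

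Edem1 and Edem2 trim mannose from misfolded glycoproteins. Edem1 (ENSMUSG00000030104) had 61.7, 63.6 and 65.1 TPM in the CuO NPs + TTM libraries, 30.4, 36.7 and 34.1 TPM in the CuO NPs libraries and 44.2, 64.8 and 49.8 TPM in the controls. The controls were widely spread, and control replicate 2 lay within the CuO NPs + TTM range. Edem1 fell by 0.62 (SE 0.12, adjusted p = 0.0031) under CuO NPs and was higher with CuO NPs + TTM than with CuO NPs by 0.90 (SE 0.12, adjusted p = 0.000263). Against control it had 0.28 (SE 0.12, adjusted p = 0.0839), which was called without control replicate 2 (0.43) and with the replicate block (0.28). Edem2 (ENSMUSG00000038312) had 82.8, 85.5 and 90.2 TPM in the CuO NPs + TTM libraries, 51.7, 51.2 and 51.3 TPM in the CuO NPs libraries and 50.1, 49.5 and 47.4 TPM in the controls, and the CuO NPs + TTM libraries lay above all others. Its log2 fold change was 0.068 (SE 0.048, adjusted p = 0.288) for CuO NPs against control, 0.73 (SE 0.048, adjusted p = 4.54e-06) between CuO NPs + TTM and CuO NPs and 0.80 (SE 0.048, adjusted p = 1.41e-06) for CuO NPs + TTM against control. Os9 (ENSMUSG00000040462), a lectin that passes trimmed chains to Sel1l, had 58.2, 53.1 and 52.7 TPM in the CuO NPs + TTM libraries, 53.3, 57.0 and 52.6 TPM in the CuO NPs libraries and 66.3, 64.9 and 72.6 TPM in the controls. It fell by 0.31 (SE 0.063, adjusted p = 0.00236) with CuO NPs + TTM against control. It also fell by 0.32 (SE 0.063, adjusted p = 0.0031) with CuO NPs against control, a call lost with median centring (-0.14), and both exposed groups overlapped.

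Derl1 and Derl2 encode membrane proteins of the exit path, and Selenos a selenoprotein that ties Derlins to the ATPase p97. Derl2 (ENSMUSG00000018442) had 23.5, 21.3 and 19.1 TPM in the CuO NPs + TTM libraries, 28.4, 28.9 and 29.6 TPM in the CuO NPs libraries and 31.7, 31.0 and 31.7 TPM in the controls. With CuO NPs + TTM it fell by 0.43 (SE 0.073, adjusted p = 0.000899) against CuO NPs and fell by 0.55 (SE 0.073, adjusted p = 0.00018) against control, with -0.12 (SE 0.073, adjusted p = 0.234) for CuO NPs against control. Derl1 averaged 69.0 ± 1.65 TPM with CuO NPs + TTM, 74.7 ± 1.04 TPM with CuO NPs and 63.5 ± 3.76 TPM in controls. It rose under CuO NPs by 0.23 (SE 0.052, adjusted p = 0.0059). For CuO NPs + TTM against control it had 0.12 (SE 0.052, adjusted p = 0.0762), called without control replicate 2 (0.16) and with quantile normalization (0.17). For CuO NPs + TTM against CuO NPs it had -0.11 (SE 0.052, adjusted p = 0.0957). There it was called lower with median-of-ratios scaling (-0.24), median centring (-0.30), quantile normalization (-0.16) and TPM rescaled without mitochondrial mRNAs (-0.17). Selenos (ENSMUSG00000075701) had 44.8, 46.9 and 41.9 TPM in the CuO NPs + TTM libraries, 52.6, 58.0 and 56.0 TPM in the CuO NPs libraries and 76.4, 77.3 and 75.7 TPM in the controls. CuO NPs + TTM libraries were lowest and controls highest, without overlap. The log2 fold change was -0.46 (SE 0.057, adjusted p = 0.00019) in CuO NPs against control, -0.31 (SE 0.057, adjusted p = 0.00132) in CuO NPs + TTM against CuO NPs and -0.77 (SE 0.057, adjusted p = 4.85e-06) in CuO NPs + TTM against control. Selenos was called under all 20 alternatives in each comparison.

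All 3 sensor genes rose with CuO NPs + TTM in both of its comparisons, which share the CuO NPs + TTM libraries. Of all genes, 34.6% were called higher against CuO NPs and 27.3% against control. The call of Xbp1 against CuO NPs was lost with median-of-ratios scaling (0.15) and with median centring (0.091). Ern1 (ENSMUSG00000020715), which encodes IRE1, had 14.3, 13.5 and 14.0 TPM in the CuO NPs + TTM libraries, 8.67, 11.04 and 8.06 TPM in the CuO NPs libraries and 7.54, 6.70 and 6.91 TPM in the controls. No groups overlapped, and the change was 0.55 (SE 0.11, adjusted p = 0.00204) between CuO NPs + TTM and CuO NPs and 0.89 (SE 0.11, adjusted p = 9.72e-05) for CuO NPs + TTM against control. The rise under CuO NPs, 0.34 (SE 0.11, adjusted p = 0.0304), was lost without control replicate 2 (0.31), control replicate 3 (0.33) or CuO NPs replicate 2 (0.22), with no filter, with 2 groups in the fit and with the replicate block (0.34 each). Atf6 (ENSMUSG00000026663) had 40.6, 38.7 and 41.5 TPM in the CuO NPs + TTM libraries, 24.4, 27.8 and 24.4 TPM in the CuO NPs libraries and 36.5, 32.4 and 31.5 TPM in the controls. It was lowest with CuO NPs, with -0.38 (SE 0.075, adjusted p = 0.00314) against control, and higher with CuO NPs + TTM than with CuO NPs by 0.64 (SE 0.075, adjusted p = 0.000105). Its rise against control, 0.26 (SE 0.075, adjusted p = 0.0146), was lost without control replicate 3 (0.22). Xbp1 (ENSMUSG00000020484), the target of IRE1, had 50.1, 49.7 and 53.4 TPM in the CuO NPs + TTM libraries, 41.1, 42.5 and 41.9 TPM in the CuO NPs libraries and 43.9, 46.4 and 42.2 TPM in the controls. CuO NPs and control overlapped with -0.075 (SE 0.054, adjusted p = 0.297), and CuO NPs + TTM exceeded both, by 0.28 (SE 0.054, adjusted p = 0.00188) against CuO NPs and 0.20 (SE 0.054, adjusted p = 0.00945) against control.

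Set beside the promoter sequences, the calls of the 8 tested genes with an ERSE match depended on the scaling. Under CuO NPs, with TPM as deposited, Hsp90b1 fell and the other 7 were not called (11.8% of all genes higher, 30.1% lower). With median-of-ratios scaling Hspa5, Creld2 and Canx rose and none of the 8 fell (19.9% and 19.8%). For CuO NPs + TTM against CuO NPs, Hsp90b1 and Pdia6 rose, Canx fell and 5 were not called (34.6% of all genes higher, 18.5% lower). With median-of-ratios scaling Pdia6 rose and Canx, Creld2, Dnajc3 and Syvn1 fell (26.4% and 27.2%). For CuO NPs + TTM against control, Hspa5 and Pdia6 rose, Canx, Dnajc3 and Syvn1 fell and 3 were not called (27.3% of all genes higher, 28.2% lower). With median-of-ratios scaling Hspa5 was no longer called and the other calls were the same (28% and 28.2%). The 2 genes with ERSE-II also went apart, Herpud1 rising and Dnajb11 falling in both comparisons of CuO NPs + TTM. Genes with none of the 4 patterns in their windows also went apart with TPM as deposited. Sdf2l1, Edem2, Sel1l, Pdia4, Ern1 and Xbp1 rose in both of those comparisons, and Pdia3, Sec61b, Derl2 and Selenos fell in both. Dnajb9, P4hb, Edem1 and Os9 did not have the same call in both. These comparisons share the CuO NPs + TTM libraries, so like calls of a gene in both are not independent. With median-of-ratios scaling Xbp1 was not called against CuO NPs, and Pdia3 was not called against control.

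Other genes of the ER were counted from lists outside the 32. These counts used TPM as deposited and were not recomputed under other scalings. Under CuO NPs, where 11.8% of all genes were called higher and 30.1% lower, 4 of 33 other folding genes rose (Pdia5, Sdf4, Txndc12 and Prdx4) and 10 fell, which is near those shares, and 10 of 41 other degradation genes rose and 10 fell. The calcium-binding protein Rcn1 averaged 7.62 ± 0.843 TPM with CuO NPs and 12.6 ± 0.199 TPM in controls. Of 38 translocon and glycosylation genes 4 rose (Srpr, Ost4, Krtcap2 and Alg12) and 6 fell. Of 22 genes of the COPII coat and its cargo receptors, which carry proteins out of the ER, 2 rose, Sec24d and Kdelr2, and 11 fell. Of 21 genes of the integrated stress response, which PERK and other kinases drive through ATF4, 15 rose and 2 fell, Atf5 and Eif2ak2, with a median of 0.59 against -0.12 over all genes. Ppp1r15a, which encodes the phosphatase subunit GADD34, averaged 183 ± 7.40 TPM with CuO NPs and 39.97 ± 1.85 TPM in controls. ER-phagy receptors and adaptors numbered 5 higher and 2 lower of 10, led by Sqstm1 with 1.60 (SE 0.045, adjusted p = 2.26e-08). Of 18 other regulators 6 rose and 4 fell, Eif2ak3, Map3k5, Rtcb and Ufl1. Eif2ak3, which encodes PERK, had -0.30 (SE 0.082, adjusted p = 0.0166).

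In CuO NPs + TTM against CuO NPs 34.6% of all genes were called higher and 18.5% lower, and 14 of the 33 other folding genes rose and 1 fell, Tmx1, with a median of 0.18 against 0.12 over all genes. Ero1a, the oxidase that supplies disulfide bonds to the isomerases, averaged 78.3 ± 2.80 TPM with CuO NPs + TTM and 42.2 ± 3.82 TPM with CuO NPs. The other degradation genes split evenly, 13 higher and 13 lower, and Ubxn8, an adaptor of p97, averaged 4.58 ± 0.635 TPM with CuO NPs + TTM and 12.99 ± 1.399 TPM with CuO NPs. Eif2ak3 rose by 0.61 (SE 0.082, adjusted p = 0.00023), among 6 higher and 4 lower (Atf6b, Map3k5, Ufm1 and Ddrgk1) of 18 other regulators. The integrated stress response list divided into 8 higher and 7 lower. Ddit3, which encodes CHOP, averaged 163 ± 26.6 TPM with CuO NPs + TTM and 87.3 ± 5.94 TPM with CuO NPs, and the cystine transporter Slc7a11 52.0 ± 9.72 TPM with CuO NPs + TTM and 99.3 ± 9.84 TPM with CuO NPs. Of the translocon list 8 rose and 9 fell, of the COPII list 9 rose and 6 fell, and of the ER-phagy list 5 rose and 2 fell, Tex264 and Sqstm1.

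In CuO NPs + TTM against control 27.3% of all genes were called higher and 28.2% lower, and 15 other folding genes rose and 6 fell, with a median of 0.15 against 0.00 over all genes, and Pdia5, another disulfide isomerase, averaged 4.74 ± 0.205 TPM with CuO NPs + TTM and 2.09 ± 0.236 TPM in controls. Other degradation genes numbered 9 higher and 11 lower, with Rhbdd1, a rhomboid protease, at 1.07 (SE 0.072, adjusted p = 2.65e-06). Of the integrated stress response list 13 rose and 5 fell, Atf5, Slc3a2, Eif2s1, Eif2ak1 and Eif2ak2, with a median of 0.54, and Trib3 averaged 124 ± 13.2 TPM with CuO NPs + TTM and 20.6 ± 0.482 TPM in controls. Other regulators numbered 7 higher and 3 lower, Map3k5, Rtcb and Ufm1. Translocon and glycosylation genes numbered 9 higher and 14 lower, COPII genes 4 higher (Preb, Sec23a, Sec24a and Sec24c) and 7 lower, and ER-phagy genes 7 higher and 1 lower, Retreg1.

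**Figure D5:**
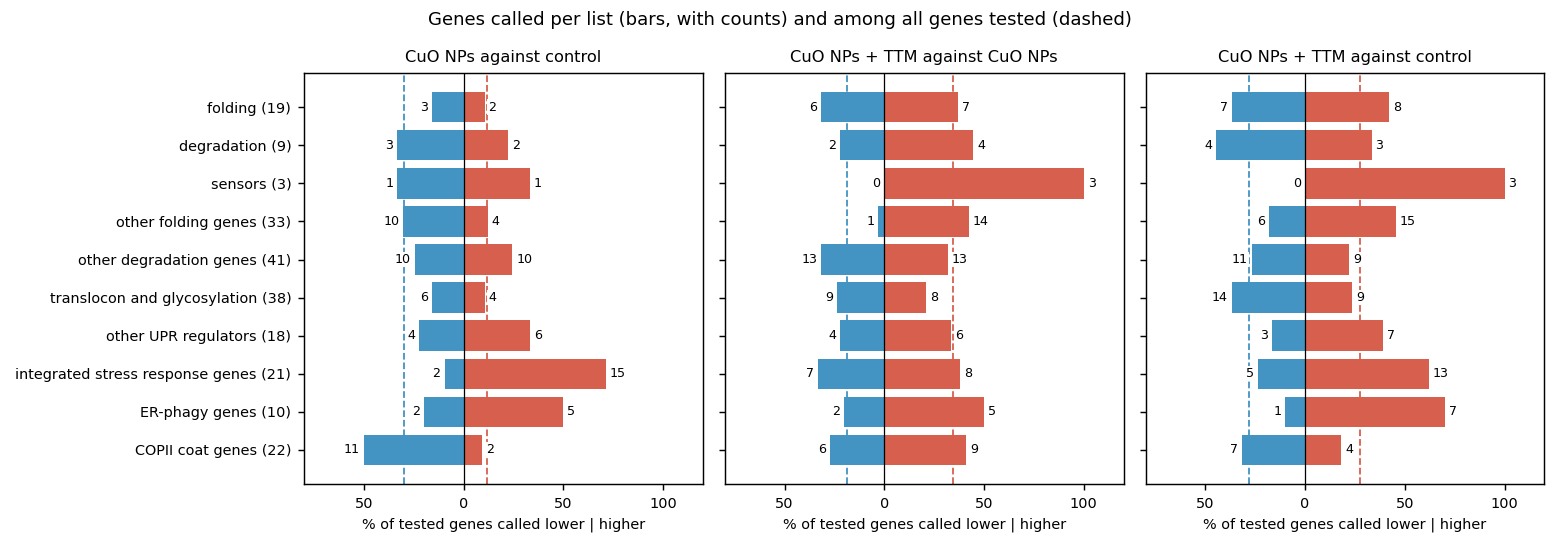
Percentage of tested genes called lower (left) and higher (right) in each list, with counts at the bars and the number tested in parentheses, and the same percentage over all genes tested as dashed lines. Integrated stress response genes exceed the dashed line for higher calls under CuO NPs (15 of 21, against 11.8% of all genes).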

How the data were processed

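Polyadenylated RNA from 9 libraries in 3 groups was measured. The authors deposited TPM per gene with 2 decimals, each library summing to between 999999 and 1000001. The submitters' processing notes name GRCm39 and the tools HISAT2, RSEM, DESeq2 and fastp, but no versions or roles. Counting by strand is not stated in the sources used here, so antisense overlaps leave a gene's value uncertain. Symbols came from a GRCm38 annotation by Ensembl identifier (52073 of 56980 matched), promoter windows from RefSeq on GRCm38.p6, and no coordinate was converted. Of 292 listed genes and markers 1, Tusc3, had no match, and Ddit3 was taken from the identifier with the higher mean of several.

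Log2(TPM + 1) of genes at 1 TPM or more in at least 3 libraries was fitted with a mean per group over all 9 libraries (limma 3.58.1, R 4.3.3, eBayes with an intensity trend, two-sided). P-values were adjusted by Benjamini-Hochberg over 12904 genes within each comparison. The fit was tested on simulated data. Intervals are 95% and unadjusted, and cover the spread between libraries, since depth is unknown. Tables were made with Python 3.11.15, pandas 2.3.3, numpy 2.4.6 and scipy 1.17.1, and plots with matplotlib 3.10.9. All 32 genes are named. Values in every library are given for genes called in any comparison with an absolute log2 fold change of at least 0.3 and for Hspa5, Hsp90b1 and the sensors, and Calr and Derl3 were added after their values were seen. The 32 genes and the other lists were chosen with earlier results of these data known. Each list's genes are described by counts and medians, with no test of a list. Alternatives changed the pseudocount, filter, scaling, trend, groups fitted, replicate block or left out 1 library.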

Additional observations from a re-analysis of the deposited data

How the results depend on the processing

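Each count and fold change of the 32 genes was recomputed under 20 alternatives, and the class sums with median-of-ratios scaling only. For CuO NPs against control, the 5 genes higher (11.8% of all genes) became 13 with median-of-ratios scaling (19.9%), 14 with median centring (24.3%), 13 with quantile normalization (20.3%) and 8 with TPM rescaled without mitochondrial mRNAs (13.7%). For CuO NPs + TTM against CuO NPs, the 8 lower (18.5% of all genes) became 15 with median centring (32.7%). The share of all genes moved along in each case. Leaving out 1 library gave 4 to 7 higher and 6 to 8 lower for CuO NPs against control, 14 to 15 higher and 7 to 8 lower in CuO NPs + TTM against CuO NPs, and 12 to 15 higher and 7 to 11 lower for CuO NPs + TTM against control. Called genes over the whole table then ranged from 4395 to 5442 for CuO NPs against control, 6035 to 6702 in CuO NPs + TTM against CuO NPs, and 6283 to 7266 for CuO NPs + TTM against control. The cause of the changes with scaling was not tested.

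Values that changed sign where either setting made a call were, with median centring, Hsp90b1 for CuO NPs against control (0.040) and Calr (-0.19), P4hb (-0.16) and Os9 (-0.18) for CuO NPs + TTM against CuO NPs. With quantile normalization they were Calr for CuO NPs against control (0.13), and Pdia3 (0.087) and Manf (0.17) for CuO NPs + TTM against control. Signs of values not called under either setting were not counted. Calls were kept under all 20 alternatives by 8 of 12 called genes for CuO NPs against control, 18 of 22 in CuO NPs + TTM against CuO NPs and 17 of 25 for CuO NPs + TTM against control.

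Replicate numbers were shared by the groups, but libraries of the same number did not deviate together (correlations across genes of -0.13 to 0.01), so they were not treated as pairs. With the replicate block the counts were 5 higher and 7 lower for CuO NPs against control, 14 and 8 in CuO NPs + TTM against CuO NPs, and 15 and 9 in CuO NPs + TTM against control. Depth is unknown, so no limit from counting can be given, and low genes such as Derl3 (at most 1.23 TPM) fell below the filter and were not tested.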
